A study of Rattus norvegicus with 6 samples.

Results

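The genes of cholesterol and fatty acid synthesis were followed in rat nucleus pulposus cells (NPCs), the cells of the soft core of the intervertebral disc. A list of 31 gene symbols was used: 18 enzymes that lead from acetyl units to cholesterol, the sterol carrier Stard4, 5 genes of the SREBP system that regulates them, and 7 enzymes that make, elongate or desaturate fatty acids. Members were found by symbol in the combined table of read counts, which held 30 of the 31 among its 20264 rows. Sc5d, a late enzyme of cholesterol synthesis, was not analysed here. Of the 30 members, 29 had enough reads to be tested. Elovl6, which elongates saturated fatty acids, did not pass the filter on low counts, with 1 read in a library of one group, 2 reads in a library of the other and 0 elsewhere.

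Cells build cholesterol from acetyl-CoA through the mevalonate pathway, which first yields farnesyl diphosphate and then squalene, the precursor of all sterols. Fatty acids are built from the same acetyl-CoA by Acaca and Fasn. The SREBP transcription factors (genes Srebf1 and Srebf2) switch on both pathways. They are made as membrane proteins that the sterol sensor Scap carries to the Golgi for cleavage, and Insig1 and Insig2 hold Scap back when sterols are plentiful, so that the mRNA level of an SREBP gene does not by itself report how much active factor a cell holds.

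The samples were primary NPCs from caudal discs of male wild-type Sprague-Dawley rats, grown in medium with serum. The TBHP group (n = 3 libraries) received tert-butyl hydroperoxide, an oxidant used to induce senescence, and the TBHP+FGF21 group (n = 3) received TBHP together with recombinant rat FGF21, a hormone-like growth factor known for its metabolic actions. Both groups carried TBHP, so the comparison addressed what FGF21 changed in stressed cells and held no untreated cells. The age of the animals, and the doses and durations behind the sequenced cells, were not given in the sources used here. In the TBHP+FGF21 group, the treatment field read FGF21 only for replicate 1; it read FGF22 for replicate 2, and for replicate 3 it was FGF23. The titles, the protocol and the design text gave FGF21 for the whole group, and that grouping was used. Nothing stated whether the libraries came from separate animals or cultures, so p-values measure only the spread between these libraries.

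Libraries held between 18277732 and 22426190 counts, and a count of 0 then allowed a level of up to 0.134 to 0.164 CPM (the count of a gene scaled to the normalized size of its library, so that libraries of different depth compare). TBHP+FGF21 replicate 2 stood apart from its group. Across genes its levels correlated with those of the TBHP libraries at a Spearman rho of 0.9959 to 0.9961. With those of its own group the rho was 0.9888 to 0.9916. The TBHP group was not uniform either. TBHP replicate 3 correlated at 0.9928 and 0.9933 with TBHP replicates 1 and 2. With TBHP+FGF21 replicates 1, 2 and 3 it correlated at 0.9942, 0.9959 and 0.9912. The plot of log2 fold changes shows each member tested with and without TBHP+FGF21 replicate 2. Aggrecan (Acan), the main disc proteoglycan, led the nucleus pulposus markers at 2506 to 4355 CPM, while the notochordal markers Tbxt, Shh and Noto had no counts. The other markers of that list added little. In TBHP replicate 1 the whole list summed to 2693 CPM, of which Acan gave 2681 CPM. Col1a1, a collagen of fibroblasts and of the outer disc, led its list at 27870 to 42460 CPM. The macrophage markers Ptprc, Adgre1 and C1qa had no counts, while Cd14 led its list at 24.97 to 35.64 CPM. The whole macrophage list summed to 26.63 to 37.87 CPM. The endothelial markers Cdh5, Kdr and Tie1 had no counts. The adipocyte markers summed to only 0.563 to 1.35 CPM, led by Fabp4 at 0.469 to 1.26 CPM.

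SREBPs bind sterol regulatory elements and usually act together with the factors NF-Y and Sp1, so the sequences before the members' start sites were searched for the 3 motifs. RefSeq promoters of the rat assembly GRCr8, from 250 bases before to 50 bases after the annotated start, were available for 24 of the 31 members. The NF-Y box, CCAAT on either strand, was present in 18 of the 24 members (75.0%) and in 37.49% of all 33469 promoter windows. The Sp1 box, GGGCGG on either strand, was present in 20 of the 24 (83.3%), in 33.06% of all windows and in 62.39% of the windows of tested genes. The sterol element searched, TCACNCCAC on either strand, was in 0 of the 24 and in 1.12% of all windows, which says only that these letters were not in these windows. Below are the 250 bases before the start of 4 members, chosen because the results turn on the desaturases Fads2 and Fads1 and because Hmgcs1 and Msmo1 are sterol enzymes with several NF-Y boxes. Capitals mark NF-Y boxes on either strand.
Fads2 (chr1:216172034-216172283, minus strand): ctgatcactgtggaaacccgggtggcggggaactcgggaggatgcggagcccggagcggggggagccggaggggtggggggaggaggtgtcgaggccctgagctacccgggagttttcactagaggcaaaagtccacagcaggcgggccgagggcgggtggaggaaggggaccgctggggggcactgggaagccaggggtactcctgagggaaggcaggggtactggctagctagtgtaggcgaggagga
Fads1 (chr1:216252442-216252691, plus strand): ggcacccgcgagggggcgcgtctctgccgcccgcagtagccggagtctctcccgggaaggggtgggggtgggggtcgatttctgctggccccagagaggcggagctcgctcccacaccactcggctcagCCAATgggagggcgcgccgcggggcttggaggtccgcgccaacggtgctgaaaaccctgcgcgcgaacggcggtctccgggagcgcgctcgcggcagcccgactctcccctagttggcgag
Hmgcs1 (chr2:53382054-53382303, plus strand): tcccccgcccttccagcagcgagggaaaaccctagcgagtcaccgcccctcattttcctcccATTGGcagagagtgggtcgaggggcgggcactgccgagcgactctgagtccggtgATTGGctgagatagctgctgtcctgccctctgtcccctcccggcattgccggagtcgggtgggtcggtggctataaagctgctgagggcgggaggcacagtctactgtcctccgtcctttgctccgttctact
Msmo1 (chr16:29746863-29747112, plus strand): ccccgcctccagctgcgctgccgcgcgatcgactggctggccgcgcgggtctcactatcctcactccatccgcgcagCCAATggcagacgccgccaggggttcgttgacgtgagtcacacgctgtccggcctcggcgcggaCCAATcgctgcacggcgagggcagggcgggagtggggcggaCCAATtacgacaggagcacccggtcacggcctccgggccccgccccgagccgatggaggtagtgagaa
The Fads2 stretch held no NF-Y box, that of Fads1 held 1, that of Hmgcs1 held 2 and that of Msmo1 held 3. A match is a description of the letters and was not tested as a binding site.

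Between the groups, the pathway as a whole stood close to level. With FGF21, 15 of the 29 members tested were higher and 14 were lower, and 48.9% of all 11426 genes tested were higher. The median log2 fold change of the members, TBHP+FGF21 over TBHP, was 0.01, and that of all genes tested was -0.01. No member passed an adjusted p of 0.05 in edgeR (quasi-likelihood F-test, adjusted by the Benjamini-Hochberg method over all genes tested), where 1 gene (0.00875%) passed. That gene was Sirt1, which is not a member and was named after its values were seen. Its counts in the combined table matched no row of the per-sample files, with which 0 genes passed. The members' adjusted p ranged from 0.553 to 0.993. At an unadjusted p under 0.05 there was 1 member, Fads2, which was higher, beside 4.63% of all genes that were higher and 4.29% that were lower. No member had an absolute log2 fold change above 1 at such a p, as 0.534% of all genes had.

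Most differences between the groups were small. The absolute log2 fold change was under 0.1 in 18 members and under 0.2 in 24, with a median standard error (SE) of 0.11. The 95% confidence interval lay within a 2-fold change in either direction for all 29 members tested, and within a 1.5-fold change for 25. The 4 with wider intervals were Idi1, Tm7sf2, Scd and Fads2. From the highest to the lowest of the 6 libraries the members differed by a median of 1.29-fold, and all genes tested by 1.36-fold. For 10 members this ratio was under 1.2, among them the cholesterol enzymes Lss and Nsdhl and the fatty acid enzymes Acly and Fasn.

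**Figure D1:**
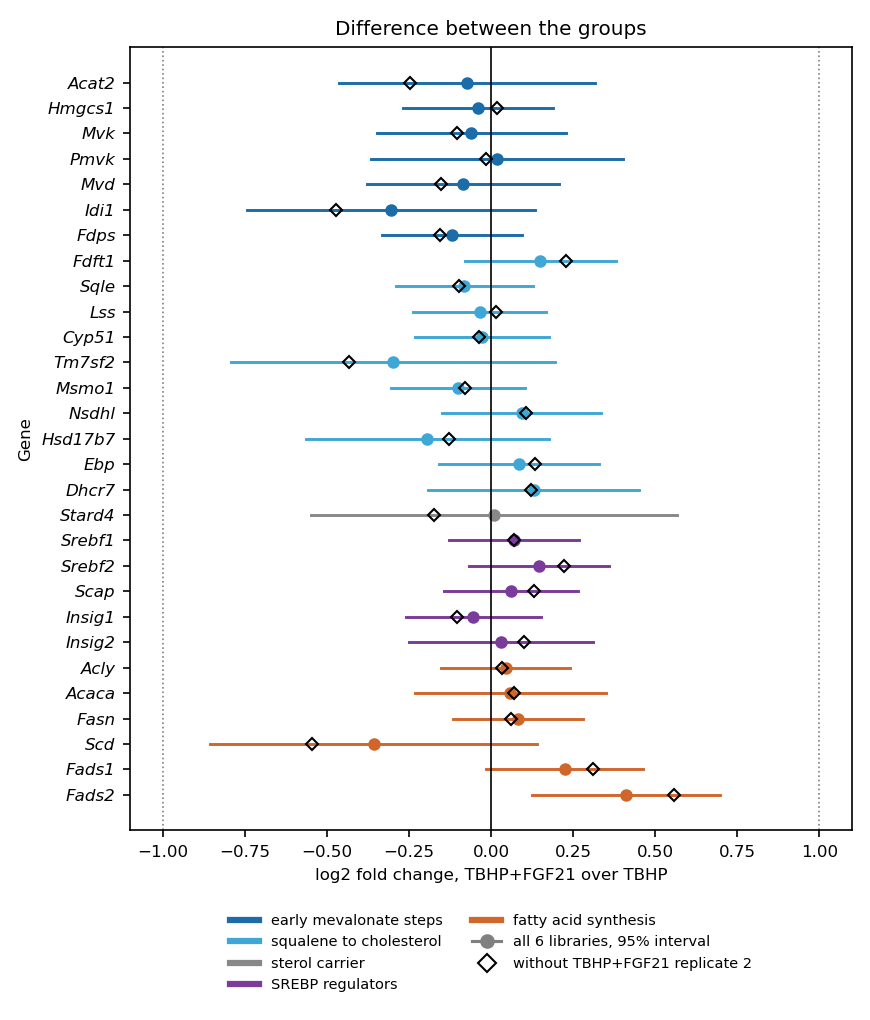
Log2 fold change (TBHP+FGF21 over TBHP, x axis) of the 29 members tested, coloured by role, with circles and 95% confidence intervals from all 6 libraries and diamonds from the fit without TBHP+FGF21 replicate 2. All intervals lie between the dotted lines at a log2 fold change of -1 and 1, and only that of Fads2 does not cross 0.

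The early enzymes, which lead to farnesyl diphosphate, were lower in 6 of 7 cases, with a median log2 fold change of -0.07, and none passed the test. Hmgcs1, which makes the substrate of the rate-limiting step, had 27.4, 27.8 and 27.8 CPM in the TBHP libraries and 29.7, 25.03 and 25.9 CPM in the TBHP+FGF21 libraries. The TBHP libraries lay within a narrow band that the other group spanned on both sides (log2 fold change -0.04, SE 0.10). Fdps, the farnesyl diphosphate synthase, had 156, 141 and 133 CPM against 121, 140 and 134 CPM, so that only TBHP+FGF21 replicate 1 was below all TBHP libraries (log2 fold change -0.12, SE 0.10).

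Idi1, the isomerase that supplies the building blocks of Fdps, had the largest difference among the early enzymes. It reached 4.92, 7.07 and 5.34 CPM in the TBHP group and 4.07, 5.79 and 4.23 CPM in the TBHP+FGF21 group. Replicate 2 was the highest of its group on both sides, and the groups overlapped. The log2 fold change was -0.30 (SE 0.20, 95% interval -0.74 to 0.13, adjusted p = 0.610 in edgeR), and without TBHP+FGF21 replicate 2 it was -0.47 (adjusted p = 0.168). The remaining early enzymes were Acat2, which joins acetyl units, the kinases Mvk and Pmvk and the decarboxylase Mvd. Their log2 fold changes were -0.07 for Acat2, -0.06 for Mvk, 0.02 for Pmvk and -0.09 for Mvd. Pmvk varied most within its group, from 13.7 CPM in TBHP+FGF21 replicate 1 to 22.8 CPM in replicate 3, which were the lowest and the highest of all 6 libraries.

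Of the steps from squalene to cholesterol, 10 of 11 enzymes were tested, 4 were higher and 6 lower with a median log2 fold change of -0.03, and none passed the test. Sqle, the squalene epoxidase and a control point of the pathway, had 33.2, 34.8 and 37.5 CPM in the TBHP group and 33.1, 34.4 and 32.3 CPM in the TBHP+FGF21 group. All 6 libraries lay within a 1.16-fold range (log2 fold change -0.08, SE 0.10). Fdft1, the squalene synthase, had 32.3, 37.2 and 36.8 CPM against 42.6, 35.5 and 39.9 CPM. TBHP+FGF21 replicates 1 and 3 were above all TBHP libraries and replicate 2 was among them (log2 fold change 0.15, SE 0.11).

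Lss, which closes the sterol ring, and the demethylase Cyp51 had log2 fold changes of -0.03 each. Msmo1, the sterol methyl oxidase, reached 128, 135 and 113 CPM against 116, 115 and 119 CPM, with all 3 TBHP+FGF21 libraries inside the TBHP range (log2 fold change -0.10). Nsdhl and Hsd17b7, which act with Msmo1 on the same methyl groups, stood at 0.09 and -0.19. Ebp, the sterol isomerase, and Dhcr7, which makes a last reduction on the way to cholesterol, stood at 0.08 and 0.13. The SE of the log2 fold change was between 0.09 and 0.17 for these 7 genes. Tm7sf2, a sterol reductase of low count, had 3.13, 2.58 and 2.30 CPM against 1.94, 2.58 and 1.96 CPM, and its log2 fold change of -0.30 (SE 0.23) rested on 41 to 57 reads a library. Stard4, which carries cholesterol between membranes, was at 1.68, 2.45 and 1.88 CPM against 1.85, 2.54 and 1.70 CPM. Replicate 2 was the highest of each group, and the log2 fold change was 0.01 (SE 0.26).

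**Figure D2:**
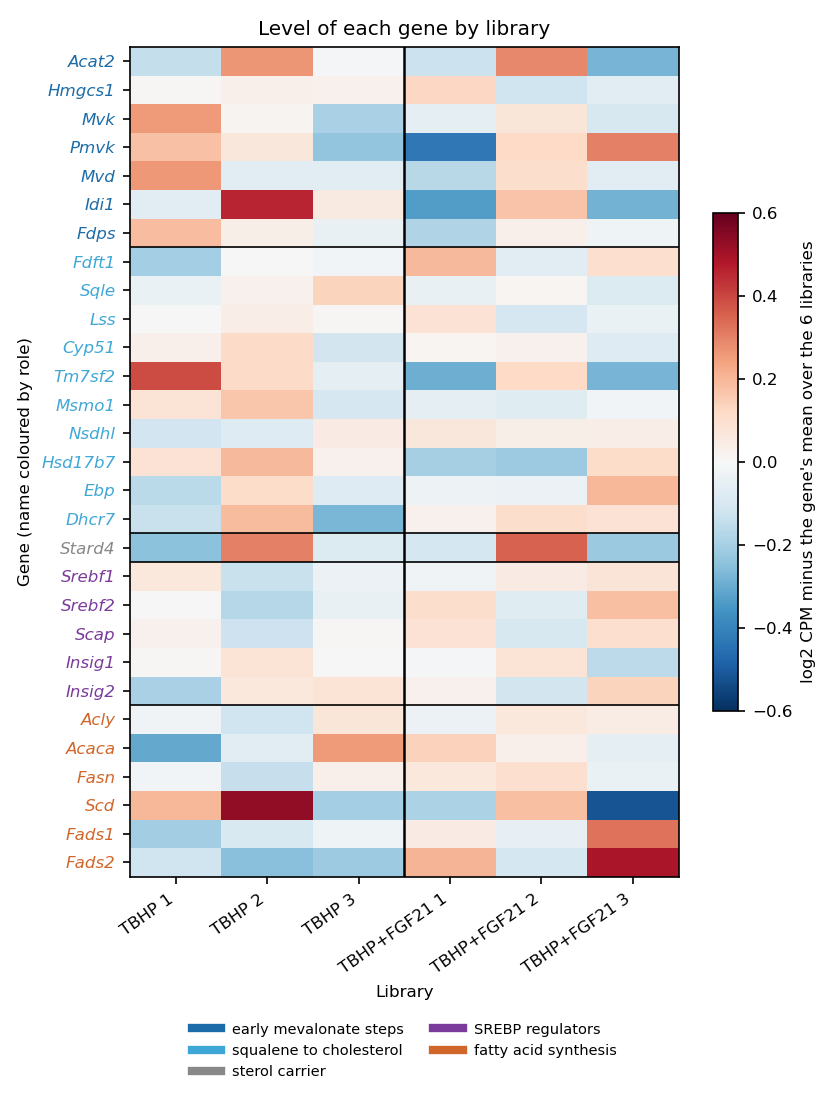
Log2 CPM of each member tested (rows, grouped by role) in the 6 libraries (columns) minus the gene's mean over the libraries, red above and blue below the mean. Sterol enzymes show no block of colour that follows the groups, while Fads2 is below its mean in the 3 TBHP libraries and above it in TBHP+FGF21 replicates 1 and 3.

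In the SREBP system 4 of 5 genes were higher and 1 lower, with a median log2 fold change of 0.06 and none past the test. Srebf2, whose product mainly drives the cholesterol genes, had 133, 119 and 129 CPM in the TBHP group and 144, 127 and 151 CPM in the TBHP+FGF21 group. TBHP+FGF21 replicates 1 and 3 were above all TBHP libraries, and replicate 2 lay among them. Its log2 fold change was 0.15 (SE 0.10, adjusted p = 0.613 in edgeR), and without TBHP+FGF21 replicate 2 it was 0.22 (adjusted p = 0.180). Srebf1, whose product mainly drives the fatty acid genes, stood at 0.07 (SE 0.09), and Scap at 0.06 (SE 0.09).

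Insig1, itself a sensitive target of SREBPs, had 62.1, 65.3 and 61.6 CPM against 61.4, 65.3 and 55.3 CPM. Only TBHP+FGF21 replicate 3 departed from the rest, downwards, and the log2 fold change was -0.05 (SE 0.09). Insig2, whose product does the same work, stood at 0.03 (SE 0.13).

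The fatty acid enzymes gave the largest differences among the members, in both directions. Of 7 listed, 6 were tested, 5 were higher and 1 lower, with a median log2 fold change of 0.07. The steps that build the chain differed little: Acly, which supplies cytosolic acetyl-CoA, stood at 0.04 (SE 0.09), the carboxylase Acaca at 0.06 (SE 0.13) and the synthase Fasn at 0.08 (SE 0.09). Fasn had 196, 180 and 202 CPM in the TBHP group and 207, 212 and 193 CPM in the TBHP+FGF21 group, and the groups overlapped. Acaca was lowest at 29.6 CPM in TBHP replicate 1 and highest at 43.8 CPM in TBHP replicate 3, so that its TBHP group enclosed all 3 TBHP+FGF21 libraries.

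Fads2 catalyses the entry step of the route from dietary polyunsaturated fatty acids to their long-chain forms. It had 88.5, 81.0 and 82.9 CPM in the TBHP libraries and 111, 89.4 and 135 CPM in the TBHP+FGF21 libraries. All 3 TBHP+FGF21 libraries were above all 3 TBHP libraries, though replicate 2 exceeded the highest of them by little. The TBHP group averaged 84.1 ± 3.9 CPM (SD, n = 3), and the TBHP+FGF21 group 112 ± 23 CPM (SD, n = 3), a 1.33-fold difference (log2 fold change 0.41, SE 0.13, 95% interval 0.12 to 0.70). The unadjusted p was 0.00882 and the adjusted p 0.553 in edgeR. An exact two-sided permutation test of the 6 libraries gave p = 0.1, the smallest that 3 against 3 allows. Fads2 was the only member whose groups did not overlap, while 4.9% of all genes lay apart with TBHP+FGF21 higher and 5.0% with it lower. Without TBHP+FGF21 replicate 2 the log2 fold change was 0.56 and the adjusted p 0.00467 in edgeR. In that fit 7.5% of 11559 genes had an adjusted p under 0.05. Replicate 2 was singled out for standing nearest to the TBHP group in these same data, so the lower value is no separate support. Leaving out any one of the other 5 libraries gave adjusted p between 0.273 and 0.982, and the lowest log2 fold change was 0.26, without TBHP+FGF21 replicate 3.

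Fads1, which desaturates the same fatty acids at a later step, had 153, 166 and 174 CPM against 183, 171 and 222 CPM. Replicates 1 and 3 of the TBHP+FGF21 group were above all TBHP libraries and replicate 2 was not. The log2 fold change was 0.22 (SE 0.11, 95% interval -0.02 to 0.46, adjusted p = 0.553 in edgeR), and without replicate 2 it was 0.31 (adjusted p = 0.0900). In RefSeq's GRCr8 annotation Fads3, Fads2 and Fads1 lie side by side on chromosome 1. Fads3, which is no member and was looked up after these values were seen, had 290, 263 and 275 CPM against 259, 269 and 233 CPM (log2 fold change -0.12, SE 0.09, adjusted p = 0.659 in edgeR). The differences of these neighbours had opposite signs, and whether they differed from each other was not tested.

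Scd, which introduces the double bond of monounsaturated fatty acids, was the member with the widest spread over the libraries, 2.07-fold. It had 5.59, 7.03 and 4.22 CPM in the TBHP group and 4.26, 5.50 and 3.40 CPM in the TBHP+FGF21 group. The groups overlapped, and the log2 fold change was -0.36 (SE 0.23, 95% interval -0.86 to 0.14, adjusted p = 0.5996 in edgeR), or -0.55 (adjusted p = 0.153) without TBHP+FGF21 replicate 2. Its paralogue Scd2, looked up afterwards, had 258 to 305 CPM over the 6 libraries and a log2 fold change of -0.07 (SE 0.09). Reads that map equally well to several places stayed out of the gene counts, so reads shared by such copies are not in these values.

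**Figure D3:**
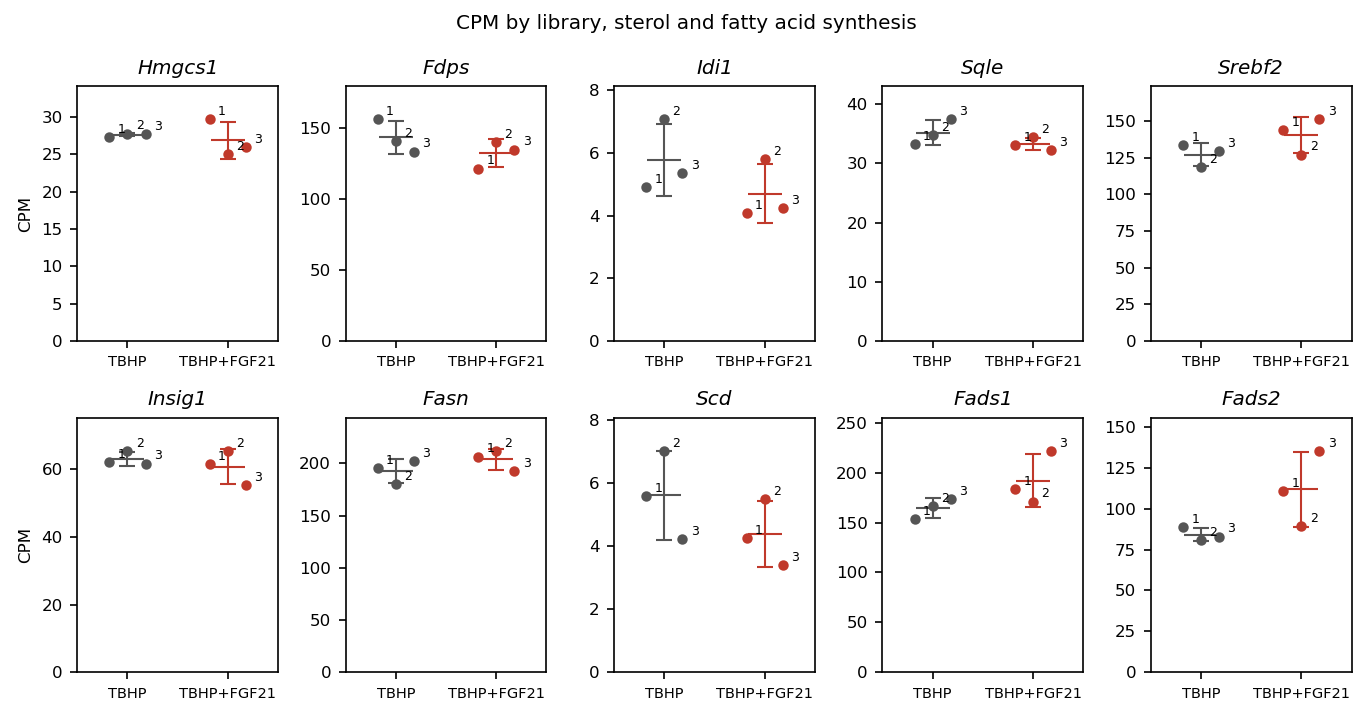
CPM (y axes from 0) of 10 members in the TBHP (grey) and TBHP+FGF21 (red) groups, with each point a library marked by its replicate number and bars giving mean and SD (n = 3). The groups overlap in every panel except Fads2, where TBHP+FGF21 replicate 2, at 89.4 CPM, lies just above the highest TBHP library at 88.5 CPM.

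The libraries were also compared one by one. TBHP+FGF21 replicate 2 lay inside the range of the TBHP libraries for 21 of 29 members, and replicates 1 and 3 for 12 each. Over all genes tested the shares were 64.4% for replicate 2, 38.6% for replicate 1 and 35.5% for replicate 3, so replicate 2 stood nearest to the TBHP group both in the members and in all genes. Without replicate 2, 5 of 29 members (17.2%) had an unadjusted p under 0.05 in edgeR, against 23.6% of all 11559 genes then tested, so the members' share was not above the background. They were Fads2, Fads1 and Srebf2, which were higher, and Idi1 and Scd, which were lower, and of these Fads2 alone had an adjusted p under 0.05. Among the other members the log2 fold change without replicate 2 was 0.23 for Fdft1, 0.13 for Scap, 0.13 for Ebp, -0.25 for Acat2 and -0.43 for Tm7sf2. The role of this library in the differences was not tested further. Acan was, like Fads2, lowest in TBHP replicate 2 and highest in TBHP+FGF21 replicate 3, at 2681, 2506 and 2939 CPM against 3476, 2864 and 4355 CPM (log2 fold change 0.40, SE 0.14, adjusted p = 0.553 in edgeR, and 0.0126 without replicate 2). Sox9, a cartilage transcription factor on the same marker list, was looked up after its values were seen. It had a log2 fold change of 0.56 (SE 0.22, adjusted p = 0.553 in edgeR, and 0.0216 without replicate 2). With any other library left out, the adjusted p in edgeR was 0.255 to 0.982 for Acan and 0.299 to 0.982 for Sox9. Because replicate 2 was singled out in these same data, the lower values without it are no separate support. The nucleus pulposus list, with 10 of 11 genes in the table and 5 tested, summed to 2518 to 2953 CPM in the TBHP group. In the TBHP+FGF21 group it summed to 2875 to 4371 CPM. Acan made up nearly all of each sum, so the sums restate Acan and do not show the other genes. Of the 5 tested, only 2, Acan and Sox9, had an unadjusted p under 0.05 in edgeR. Over all genes tested, 4.63% were higher and 4.29% lower at such a p. Values of the other tested genes of this list are not given, so Acan and Sox9 do not stand for the list. The 6 fibroblast and annulus markers summed to 46350, 42700 and 41910 CPM in the TBHP group. In the TBHP+FGF21 group they summed to 40630, 43770 and 31380 CPM, and the sum was thus lowest in the library where Fads2 was highest. Col1a1, at 27870 to 42460 CPM over the 6 libraries, made up most of each sum. The sums therefore mainly restate Col1a1. The part of these cell-type markers in the Fads2 result was not tested. In bulk RNA fewer cells of a type and less RNA per cell cannot be told apart.

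**Figure D4:**
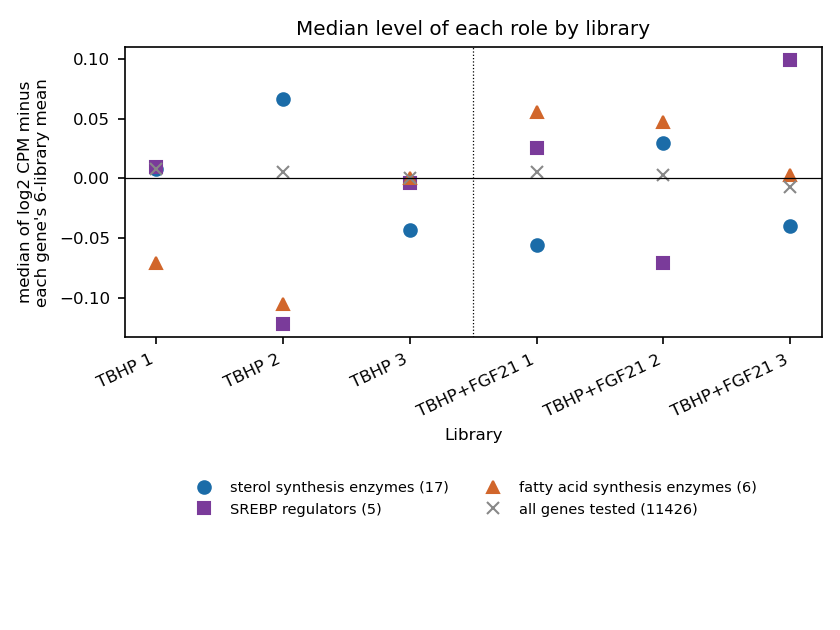
Median over the genes of each role of log2 CPM minus the gene's mean over the 6 libraries (y axis), by library (x axis). For the sterol enzymes the median is highest in TBHP replicate 2, at 0.07, and next in TBHP+FGF21 replicate 2, at 0.03, and all medians lie within 0.13 of 0.

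Genes next to these pathways were taken from 5 lists, and again none passed the adjusted test. Over all genes tested, 4.63% were higher and 4.29% lower at an unadjusted p under 0.05 in edgeR. The groups did not overlap for 4.9% of all genes with TBHP+FGF21 higher and for 5.0% with it lower. Of the isoprenoid branch, which uses farnesyl diphosphate for dolichol, ubiquinone and protein prenylation, 5 of 13 genes tested were higher and 8 lower, with a median log2 fold change of -0.05. At an unadjusted p under 0.05 there was 1, Nus1, a subunit of the enzyme that makes dolichol precursors (log2 fold change -0.24, SE 0.10). Of the machinery that processes and degrades SREBPs and sterol enzymes, 10 of 13 were higher and 3 lower (median 0.05), and the lipin Lpin1 was the only one at such a p (0.42, SE 0.19).

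Among other lipogenic genes 9 of 19 tested were higher and 10 lower (median -0.02). Acss2, which makes acetyl-CoA from acetate, had 11.8, 11.1 and 11.3 CPM against 14.1, 12.2 and 16.5 CPM. As for Fads2, the groups did not overlap and replicate 2 was the lowest of the TBHP+FGF21 libraries (log2 fold change 0.33, SE 0.14). Faxdc2, a hydroxylase of the family of Msmo1, stood at 0.57 (SE 0.21). Of the genes for sterol uptake, efflux and storage, 12 of 20 were higher and 8 lower (median 0.03), and Npc1, which exports cholesterol from lysosomes, was at 0.27 (SE 0.12) with an unadjusted p under 0.05.

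Among genes for fatty acid use and lipid droplets 12 of 19 tested were higher and 7 lower (median 0.01). At an unadjusted p under 0.05 there were 4, of which 2 were higher and 2 lower, beside 4.63% of all genes higher and 4.29% lower. Pparg, the nuclear receptor that directs lipid storage, had 0.782, 1.04 and 1.08 CPM against 2.42, 1.39 and 2.09 CPM, which were 14 to 51 reads a library. The groups did not overlap, and the log2 fold change was 1.01 (SE 0.29, adjusted p = 0.553 in edgeR). Cpt1a, which admits fatty acids to mitochondria for oxidation, had 23.3, 22.6 and 25.5 CPM against 30.6, 25.03 and 45.2 CPM (log2 fold change 0.50, SE 0.18). Acsl4, which activates polyunsaturated fatty acids, was lower at -0.34 (SE 0.15), and the fatty acid carrier Fabp3 at -0.31 (SE 0.14). All 9 genes named from these lists had an adjusted p of 0.553, and they were named for their unadjusted p in that fit. Without TBHP+FGF21 replicate 2 the adjusted p in edgeR was 0.0216 for Pparg, 0.00822 for Cpt1a, 0.0137 for Faxdc2, 0.0374 for Npc1, 0.0219 for Acsl4 and 0.0323 for Fabp3. That of Acss2, Lpin1 and Nus1 was above 0.05 at 0.0659, 0.0736 and 0.0644. With any other library left out, the adjusted p of the 9 genes was 0.244 to 0.982. Replicate 2 was singled out for standing nearest to the TBHP group in these same data, so the lower values without it are no separate support. Over the 5 lists 8 of 84 genes tested (9.52%) had an adjusted p under 0.05 in the fit without that library, where 7.5% of all genes did. The 2 not yet named, Por and Ppard, were noted after their values were seen.

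**Figure D5:**
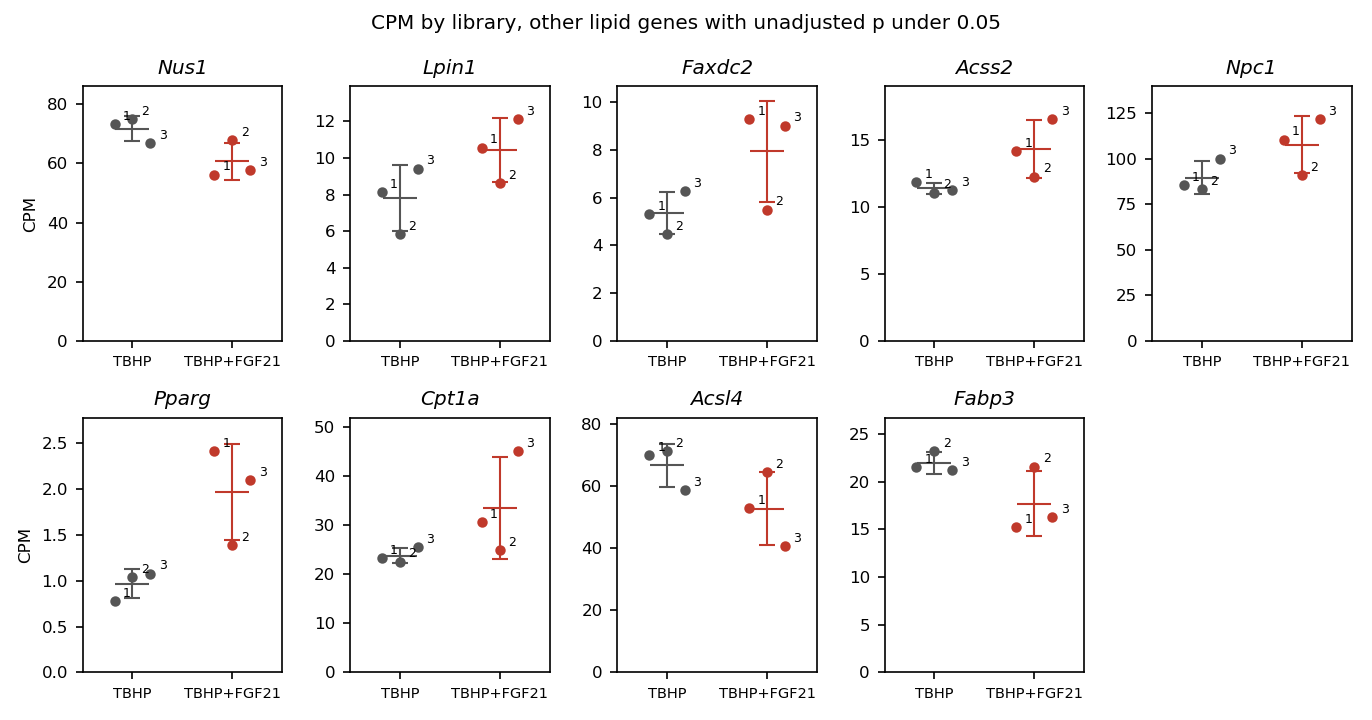
CPM (y axes from 0) of the 9 genes outside the member list that had an unadjusted p under 0.05, with each point a library marked by its replicate number and bars giving mean and SD (n = 3). In each panel TBHP+FGF21 replicate 2 is the library of its group nearest to the TBHP mean, and only Acss2 and Pparg have groups that do not overlap.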

How the data were processed

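RNA-seq of 6 libraries was analysed, 3 per group. Libraries were grouped by their deposited titles. The submitters' processing notes name STAR and featureCounts. The genome build and annotation are not given in the sources used here. For each library the authors deposited unnormalized read counts by Ensembl gene, and they also deposited a combined table of raw counts by gene symbol, which was used here. Because 22 rows of that table were not whole, the combined values deposited by the authors were classed with estimated counts and rounded up to whole counts. Of the 31 listed members, 29 were linked to 1 Ensembl gene each by identical counts in both files. Elovl6 and Sc5d were not. The library kit was a directional one, but the 2 strand columns of the per-sample files held nearly equal totals (ratio 0.978 to 0.986). The unstranded counts were therefore used, and reads of a gene and of an overlapping or antisense transcript cannot be told apart. Unmapped reads (1.24% to 1.40%), multimapping reads (6.27% to 7.02%), reads outside genes (9.13% to 10.4%) and ambiguous reads (1.72% to 2.09%) entered neither library sizes nor tests.

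The fit used edgeR 4.0.16 in R 4.3.3, with filterByExpr (at a minimum count of 10 and a minimum total of 15), TMM normalization, group as the only term, the functions glmQLFit and glmQLFTest, and p-values adjusted by the Benjamini-Hochberg method across 11426 genes. CPM values were computed on TMM-scaled library sizes, and each SE was obtained by dividing the log2 fold change by the root of F. No library repeated another: chi-square values per gene were 6.72 to 55.7 over the 15 pairs. The limit of 3 counts for a count of 0 covers counting error only. Counts were simulated over 11426 genes, of which 200 were changed. The fit recovered 84 of 100 genes set at a log2 fold change of 1 and 27 of 100 set at 0.5, with 3 false calls among 114. All simulated libraries of a group shared 1 mean, so none stood apart as TBHP+FGF21 replicate 2 did, and these shares need not hold for the real fit. There 61 genes had an absolute log2 fold change above 1 at an unadjusted p under 0.05, and 1 gene passed the adjusted test.

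The members and the lists of neighbouring genes and markers were chosen with earlier results of these data known. All members were named. Of each neighbouring list the genes with an unadjusted p under 0.05 were named, at most 5 a list, and of each marker list the gene of highest level and the defining markers without counts. Promoter sequences are those of RefSeq for GRCr8, matched by symbol. No coordinates of the count files were used. Alternatives were DESeq2 size factors, DESeq2 1.42.0 with its Wald test, voom weights in limma 3.58.1, no filter on low counts, the per-sample counts, a block for the replicate number, omission of each library in turn, and TBHP+FGF21 replicate 1 alone against the TBHP group.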

Additional observations from a re-analysis of the deposited data

How the results depend on the processing

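Under DESeq2 size factors, the DESeq2 Wald test, no filter on low counts, the per-sample counts and the replicate block, all 29 members kept their direction and their side of the adjusted threshold. At an adjusted p under 0.05, the fit called 1 gene in edgeR, 5 without the filter, 2 with the replicate block, 0 with the per-sample counts, 4 in the Wald test, 0 in limma-voom and 325 with TBHP+FGF21 replicate 1 alone. At an unadjusted p under 0.05 the counts were 1019, 1438, 1599, 1082, 912, 996 and 1669 in the same order. Leaving out each library gave 0 to 867 genes, the highest without TBHP+FGF21 replicate 2, and 337 to 2732 at an unadjusted p. Members with an unadjusted p under 0.05 were 1 in edgeR, 2 without the filter and 2 with the replicate block (Fads2 and Fads1), 2 with TBHP+FGF21 replicate 1 alone (Fads2 and Pmvk), and 1 to 5 when a library was left out. Fads2 kept a positive log2 fold change throughout, with an adjusted p of 0.132 to 0.569 over the settings that left out no library, 0.119 with TBHP+FGF21 replicate 1 alone and 0.00467 without TBHP+FGF21 replicate 2. The median log2 fold change of the fatty acid enzymes was 0.13 with TBHP+FGF21 replicate 1 alone and 0.034 to 0.18 when a library was left out. That of all members was -0.029 to 0.019 when a library was left out.

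Members near 0 changed sign. With TBHP+FGF21 replicate 1 alone the log2 fold change was -0.012 for Acly, 0.0020 for Cyp51, 0.11 for Hmgcs1, 0.070 for Lss, -0.43 for Pmvk and -0.12 for Stard4, and limma-voom gave -0.0021 for Stard4. Leaving out a library gave a range of -0.059 to 0.23 for Acaca, -0.25 to 0.050 for Acat2, -0.0035 to 0.10 for Acly, -0.078 to 0.025 for Cyp51, -0.11 to 0.017 for Hmgcs1, -0.10 to 0.015 for Insig1, -0.044 to 0.099 for Insig2, -0.076 to 0.014 for Lss, -0.15 to 0.034 for Mvd, -0.16 to 0.067 for Mvk, -0.13 to 0.21 for Pmvk and -0.17 to 0.18 for Stard4. The cause was not tested. Whether the replicate numbers pair the libraries was not stated. The deviations of same-numbered libraries correlated at -0.12, 0.21 and 0.15, and those of differently numbered libraries at -0.26 to 0.18. These values do not settle it. Even in the simulation, with 3 libraries a group, differences of a log2 fold change of 0.5 were mostly out of reach of the adjusted test. TBHP+FGF21 replicate 1 alone leaves 1 library in its group, assumed to vary like the TBHP libraries.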

Other observations

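Chosen after the values were seen, 5 of the 29 members tested had replicate 2 of both groups as their highest libraries: Acat2, Idi1, Dhcr7, Stard4 and Insig1. Among all genes tested 6.87% had this order. Of the 8 markers of dividing cells 7 had it too. The 8 summed to 214, 276 and 252 CPM in the TBHP group and to 219, 330 and 193 CPM in the TBHP+FGF21 group. Cdk1 led that list at 52.7 to 74.9 CPM. A link between the levels was not tested.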
